A study of Homo sapiens with 4 samples.

Results

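The genes described are 9 regulators and target genes of the transcription factor p53, namely MDM2, MDM4, CDKN1A, SESN1, GADD45A, FAS, TP53INP1, ZMAT3 and RRM2B. They were found by symbol through the Ensembl identifiers of GENCODE release 44, and all 9 were present among the 65217 genes of the deposited table. They were measured by RNA sequencing in SEM cells, a human B-cell precursor acute lymphoblastic leukaemia line with the KMT2A-AFF1 (MLL-AF4) fusion, that had been transplanted into immunodeficient mice of 6 to 10 weeks. Cells from brain, for which the protocol names the leptomeninges, gave 2 libraries, and cells from spleen gave 2. Each library held the pooled RNA of 5 mice, with leukaemic cells enriched on a Ficoll gradient. The replicate number is taken here to mark 1 of 2 occasions of the experiment. All libraries share the same line, and neither the mouse strain nor the p53 status of the line is stated in the labels. The p53 gene itself was not analysed here.

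p53 is a transcription factor that is held at a low level in unstressed cells and is stabilised after DNA damage and other stress. MDM2 is the ubiquitin ligase that marks it for degradation, and MDM4 is a related protein that binds p53 and blocks its activity. Since MDM2 is itself a target of p53, the pair forms a negative feedback loop, while the other targets act in growth arrest, DNA repair and nucleotide supply, redox defence, autophagy and cell death. In acute leukaemia the pathway is known for its part in the response to cytotoxic drugs.

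The DNA to which p53 binds is a symmetric consensus of 20 bases, made of a 10-base motif and its repeat without a spacer, and it is shown here because p53 targets are known to carry it. The best match to the p53 consensus was searched on both strands, which are equivalent since the consensus is its own reverse complement, in a window of 5000 bases centred on a start of the gene in GRCh38. Capitals mark bases that match the consensus and lower case marks mismatches, and each sequence is written 5′ to 3′ on the strand of its gene. TP53INP1 and RRM2B were not searched.
ZMAT3: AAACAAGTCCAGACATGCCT
GADD45A: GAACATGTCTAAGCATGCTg
CDKN1A: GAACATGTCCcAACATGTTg
MDM2: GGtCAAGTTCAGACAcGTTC
FAS: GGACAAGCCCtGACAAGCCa
SESN1: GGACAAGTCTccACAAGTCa

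The ZMAT3 match lay in intron 1 at chr3:179070188-179070207 on the minus strand with 0 mismatches, and 0.0649% of the windows of 20032 protein-coding genes held a match as good. The GADD45A match, in intron 3 at chr1:67686775-67686794 on the plus strand, had 1 mismatch, which 0.948% of windows reached. Matches with 2 mismatches are common, since 11.7% of windows held one.

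Among these was the CDKN1A match, 2265 bases upstream of the start at chr6:36676449-36676468 on the plus strand, 1 of 2 equal matches in its window. The MDM2 match lay in intron 1 at chr12:68808923-68808942 on the plus strand, and a match with 3 mismatches, AGttAAGTCCtGACTTGTCT, followed it at chr12:68808961-68808980. Both lay within the 300-base promoter window that RefSeq gives for the second MDM2 promoter, and of 35116 such windows 0.649% held a match with at most 2 mismatches. The FAS match was in intron 1 at chr10:88991309-88991328 on the plus strand. The SESN1 match, at chr6:109009018-109009037 on the minus strand, had 3 mismatches, as few as in 66.7% of windows, and it lay in intron 1 of the shorter transcript SESN1-202. For SESN1 the start of the longer SESN1-204 was searched as well, and its best match had 4 mismatches, as few as in 99.8% of windows. MDM4 had a best match with 2 mismatches in intron 1. A match describes the letters of the window and does not show that p53 binds there in these cells.

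The libraries held 36913437 and 33055465 estimated counts in brain and 32972842 and 26266136 in spleen, and the 9 genes together took between 0.0341% and 0.0414% of them. Transcripts of the mouse host took 2.24% and 1.45% of estimated counts in brain and 4.31% and 6.32% in spleen. All 8 B-lineage markers were present, with a summed level of 2223 to 2378 CPM in brain and 1751 to 1885 CPM in spleen, where CPM are counts scaled to a library total of 1000000 with TMM factors. Markers of T cells summed to 0.162 to 0.410 CPM in brain and 0.158 to 0.303 CPM in spleen, with CD3D and CD2 at 0, and erythroid markers to at most 0.243 CPM. Summed markers of neurons and glia, nearly all from MBP and with SNAP25 at 0, were 117 to 132 CPM in brain and 89.6 to 93.1 CPM in spleen. Endothelial and stromal markers summed to 52.1 to 75.2 CPM in brain and 34.2 to 34.9 CPM in spleen. Most of this came from PECAM1, and LUM was at 0. Myeloid markers summed to 29.2 to 36.5 CPM in brain and 36.5 to 38.4 CPM in spleen, mostly from CSF1R. Of the 11 markers named for neurons, glia and T cells, only MBP reached 1 CPM, and the part of these marker levels in the results was not tested. The markers are human transcripts, so their low levels do not measure carry-over of mouse host cells. The spleen libraries differed from each other more than the brain libraries did, the chi-square of replicate counts averaging 9.36 per gene in brain and 64.4 in spleen. Named genes whose call changed without 1 spleen library are therefore also given without it. A fit without 1 library leaves that group with no spread of its own, so the spread comes from the other group alone. P-values and numbers of genes called in such a fit are therefore no support for a difference.

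Of the 9 genes, 0 passed the test of brain against spleen at an adjusted p under 0.05 (edgeR's quasi-likelihood test, Benjamini-Hochberg adjustment over 17075 genes), where 2.02% of all genes tested passed, 1.63% higher and 0.387% lower in brain. At an unadjusted p under 0.05 there were 2 of the 9, TP53INP1 and ZMAT3, against 20.6% of all genes. DESeq2 called 1 of the 9, TP53INP1, where it called 6.21% of all genes, and limma-voom called 0 of the 9 and 2.04% of all. For 6 of the 9 both brain libraries lay above both spleen libraries, as was so for 30.2% of all genes. The log2 fold change, always brain over spleen, was positive for 8 of the 9 and negative for CDKN1A, with a median of 0.42 over the 9 and 0.04 over all genes tested. In these bulk samples, fewer cells that express a gene and less RNA of it per cell cannot be told apart. The count of genes called depended on the libraries used. It was 5 of 9 without spleen replicate 1, where 37.9% of all genes passed, 1 without spleen replicate 2, where 17.3% passed, 1 without brain replicate 2, where 3.09% passed, and 0 without brain replicate 1, where 2.25% passed. Other fits gave 2 without the filter on low counts (6.15% of all genes), 2 with the replicate number as a block (10.9%) and 1 with that block and offsets for GC content and length (13.1%).

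**Figure D1:**
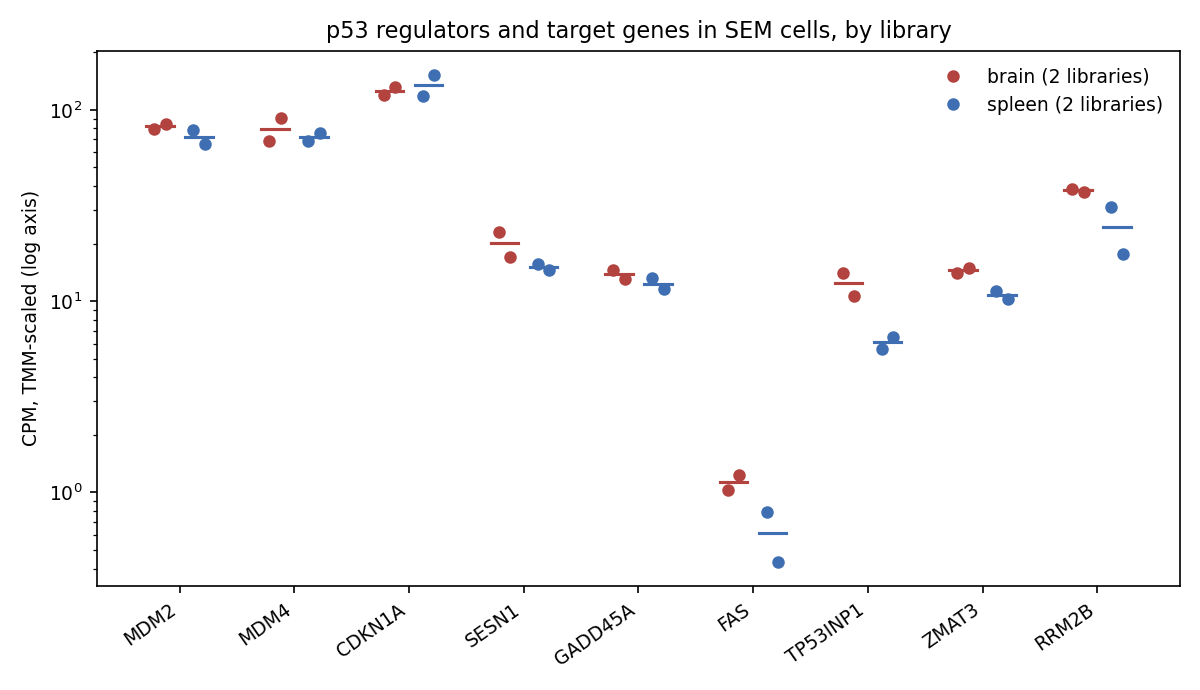
Level of each gene in CPM with TMM scaling (log axis), with a point for each of the 2 brain and 2 spleen libraries and a line for the group mean. TP53INP1 shows the widest gap between the groups, 14.1 and 10.7 CPM in brain against 5.64 and 6.53 CPM in spleen, while CDKN1A, MDM4 and GADD45A overlap.

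Neither of the genes that hold p53 in check passed the test. MDM2, at chr12:68808177-68845544 on the plus strand of GRCh38, had 79.4 and 84.7 CPM in the brain libraries, against 78.1 and 66.0 CPM in the spleen libraries. Both brain values were above both spleen values, but the ratio of brain to spleen was 0.02 on the log2 scale on the first occasion and 0.36 on the second. Per transcript length (TPM, described below) the order was the reverse, 25.6 and 27.3 in brain against 35.4 and 29.3 in spleen. The annotated transcripts behind these TPM held only 20.1% to 25.7% of the MDM2 count, and their summed counts gave a log2 fold change of -0.037. The cause was not tested. From the full gene count, the log2 fold change of MDM2 was 0.19 ± 0.15 (SE), with a 95% interval of -0.17 to 0.54 and an adjusted p of 0.517 (edgeR). MDM2 passed only without spleen replicate 1, at a log2 fold change of 0.26, in a fit that holds no spread of spleen.

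MDM4, which binds p53 without being an active ligase for it, lies at chr1:204516379-204558120 on the plus strand. It had 68.7 and 90.3 CPM in brain and 68.9 and 75.8 CPM in spleen. The groups overlapped, and the brain libraries differed from each other more than the groups did. Within occasions the log2 ratio was -0.0038 and 0.25. The fitted log2 fold change was 0.14 ± 0.17 (SE), with a 95% interval of -0.27 to 0.54 and an adjusted p of 0.690 (edgeR).

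Among the genes of growth arrest, CDKN1A encodes p21, the inhibitor of cyclin-dependent kinases through which p53 stops the cell cycle. CDKN1A, at chr6:36676460-36687337 on the plus strand, had 120 and 131 CPM in brain, against 118 and 152 CPM in spleen. The groups overlapped, since spleen replicate 1 was the lowest and spleen replicate 2 the highest of the 4 libraries, with log2 ratios of 0.03 and -0.21 on the first and second occasions. Its log2 fold change of -0.10 ± 0.16 (SE) had a 95% interval of -0.48 to 0.28 and an adjusted p of 0.754 (edgeR). The value depended on the spleen library used: it was -0.32 without spleen replicate 1, with an adjusted p of 0.00477, and 0.10 without spleen replicate 2, with an adjusted p of 0.498.

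GADD45A is a stress protein that binds kinases and acts in cell cycle arrest and DNA repair, and it lies at chr1:67685201-67688334 on the plus strand. It had 14.6 and 13.1 CPM in brain and 13.2 and 11.6 CPM in spleen. The groups overlapped narrowly, and on each occasion the brain library was the higher one, by 0.15 and 0.18 on the log2 scale. The fitted log2 fold change was 0.16 ± 0.18 (SE), with a 95% interval of -0.26 to 0.59 and an adjusted p of 0.645 (edgeR).

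RRM2B and ZMAT3 act beyond arrest, and the first is the p53-inducible small subunit of ribonucleotide reductase that supplies nucleotides for DNA repair. RRM2B, at chr8:102204502-102238961 on the minus strand, had 38.8 and 37.1 CPM in brain, against 31.0 and 17.6 CPM in spleen. The brain values lay close together and above both spleen values, of which spleen replicate 2 was far lower than spleen replicate 1. The means were 37.9 ± 1.17 CPM in brain and 24.3 ± 9.51 CPM in spleen (SD, n = 2 each).

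For RRM2B the log2 fold change was 0.64 ± 0.27 (SE), with a 95% interval of -0.01 to 1.29 and an adjusted p of 0.250 (edgeR). It was 0.32 on the first occasion and 1.08 on the second. With the replicate number as a block the fitted value was 0.70 and the adjusted p 0.0255, in a fit that called 10.9% of all genes. With the block in DESeq2 the adjusted p was 0.264, and with the block and the GC and length offsets described below it was 0.437, at a log2 fold change of 0.22. Spleen replicate 2 decided the size: without it the log2 fold change was 0.30, and without spleen replicate 1 it was 1.06.

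ZMAT3 encodes a zinc finger protein that binds RNA and is a target of p53 in tumour suppression. ZMAT3, at chr3:178960121-179072215 on the minus strand, had 14.1 and 14.9 CPM in brain, against 11.3 and 10.2 CPM in spleen. Here the libraries of each group lay close together and the groups did not overlap. The log2 fold change was 0.43 ± 0.18 (SE), with a 95% interval of 0.01 to 0.85, and it was 0.32 on the first occasion and 0.55 on the second. The unadjusted p of 0.045 became 0.231 after adjustment (edgeR). Without spleen replicate 1 the log2 fold change of ZMAT3 was 0.46, and without spleen replicate 2 it was 0.37.

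SESN1 and TP53INP1 belong to redox defence, nutrient sensing and autophagy. SESN1 encodes sestrin 1, which restrains the growth regulator mTORC1, and lies at chr6:108984309-109094846 on the minus strand. It had 23.1 and 17.1 CPM in brain, against 15.6 and 14.5 CPM in spleen. The groups did not overlap, and brain replicate 1 stood above the other 3 libraries. The log2 ratio was 0.57 on the first occasion and 0.24 on the second. The log2 fold change was 0.42 ± 0.20 (SE), with a 95% interval of -0.04 to 0.88 and an adjusted p of 0.281 (edgeR). Without brain replicate 1 it was 0.18, and without brain replicate 2 it was 0.62.

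TP53INP1, a nuclear stress protein that also acts in autophagy, gave the smallest p-value of the 9 genes. It lies at chr8:94925972-94949378 on the minus strand. It had 14.1 and 10.7 CPM in brain, against 5.64 and 6.53 CPM in spleen, from 522 and 365 counts in brain and 186 and 165 counts in spleen. Both brain values were well above both spleen values, with means of 12.4 ± 2.42 CPM in brain and 6.09 ± 0.629 CPM in spleen (SD, n = 2 each).

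For TP53INP1 the log2 fold change of 1.03 ± 0.22 (SE) is a 2.04-fold higher level in brain, with a 95% interval of 1.42-fold to 2.93-fold. It was 1.32 on the first occasion and 0.71 on the second. The unadjusted p of 0.00192 became 0.0667 after adjustment over all genes (edgeR), which misses the threshold. With the replicate number as a block the adjusted p was 0.00286 by edgeR and 0.134 by DESeq2, and DESeq2 without the block gave 0.0127. With the block and the GC and length offsets described below it was 0.0443 by edgeR, at a log2 fold change of 0.61. That fit called 13.1% of all genes. The call also depended on single libraries, with an adjusted p of 0.394 without brain replicate 1, 0.0276 without brain replicate 2, 0.00221 without spleen replicate 1 and 0.000776 without spleen replicate 2. TP53INP1 overlaps NDUFAF6 on the opposite strand, and the strand setting of the quantification is not given in the sources used here, so that reads of the pair may not have been told apart.

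FAS is the death receptor of the extrinsic route to apoptosis and was barely expressed. FAS, at chr10:88953813-89029605 on the plus strand, had 1.03 and 1.23 CPM in brain, against 0.789 and 0.435 CPM in spleen. These levels rested on 38 and 42 counts in brain and 26 and 11 counts in spleen. The brain values were above the spleen values, but at this depth the log2 fold change of 0.85 ± 0.41 (SE) had a 95% interval of -0.11 to 1.81 and an adjusted p of 0.289 (edgeR). The log2 ratio was 0.38 on the first occasion and 1.498 on the second, and without spleen replicate 2, the lowest library, the fitted value was 0.53. FAS also overlaps STAMBPL1 on its own strand and ACTA2 on the other.

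Per length, the highest and the lowest of the genes differed far more from each other than any gene did between the organs. Some neighbours in the order differed less than RRM2B and TP53INP1 did between the organs. In TPM, a level per transcript length summed over the transcripts of a gene, CDKN1A averaged 85.0 ± 7.24 TPM over the 4 libraries (SD, n = 4). MDM4 followed with 15.8 ± 6.06 TPM, GADD45A with 14.0 ± 2.23 TPM, RRM2B with 10.1 ± 4.36 TPM and SESN1 with 8.99 ± 2.09 TPM. In that order, each of these neighbours from MDM4 to SESN1 lay within the spread of the next, whereas CDKN1A stood clear of all. Within spleen alone the order of close neighbours turned, with GADD45A at 12.4 TPM above MDM4 at 12.02, SESN1 at 7.63 above RRM2B at 6.72, and ZMAT3 at 1.61 above TP53INP1 at 1.38. TP53INP1 with 2.25 ± 1.05 TPM and ZMAT3 with 2.00 ± 0.545 TPM were lower and did not differ from each other beyond their spread. FAS was lowest at 0.821 ± 0.404 TPM, although the annotated transcripts held only 71.3% to 94.7% of its gene count. MDM2 was left out of this order, since its annotated transcripts held 20.1% to 25.7% of its count in the gene table.

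The libraries also differed by a gene's base composition and length. Over all genes, a smooth trend of each library's log2 deviation was fitted to GC content and mean transcript length. At the GC content and length of RRM2B the trend between brain and spleen was 0.48, and 98.6% of genes had a lower one. It was 0.47 for ZMAT3, 0.42 for TP53INP1, 0.39 for MDM2, 0.39 for MDM4, 0.23 for SESN1 and 0.14 for FAS, but -0.03 for CDKN1A and -0.08 for GADD45A. The 7 genes with a trend over 0.1 are the 7 with a GC content under 45%, while CDKN1A has 57.3% and GADD45A 51.6%.

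Spleen replicate 2 stood apart in this trend. Its deviation was -0.65 at the position of RRM2B, -0.56 at that of ZMAT3 and -0.49 at that of TP53INP1, but 0.09 at that of CDKN1A. Across the 9 genes the log2 fold change and the trend had a Pearson correlation of 0.42, a description over genes that share the same 4 libraries. Several genes lay away from the trend. Above it lay, among others, TP53INP1 with a log2 fold change of 1.03 at a trend of 0.42. FAS had 0.85 at 0.14 and GADD45A 0.16 at -0.08. Below it lay, among others, MDM4 with 0.14 and MDM2 with 0.19, each at a trend of 0.39.

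With the trend as an offset in the fit, which brought the all-gene median to -0.08 on the log2 scale, against 0.04 without it, and called 5.31% of them, 0 of the 9 genes passed and 5 of 9 log2 fold changes were positive. TP53INP1 was then at 0.59 with an adjusted p of 0.218, FAS at 0.76, GADD45A at 0.24, RRM2B at 0.22 and SESN1 at 0.18 (edgeR). The fold changes of ZMAT3 at -0.05, MDM2 at -0.21 and MDM4 at -0.28 were of the opposite sign to those without the offset, and CDKN1A was at -0.06. For MDM2, composition and length come from transcripts that held only a small part of its count. The trend's part in the fold changes was not tested beyond this offset.

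**Figure D2:**
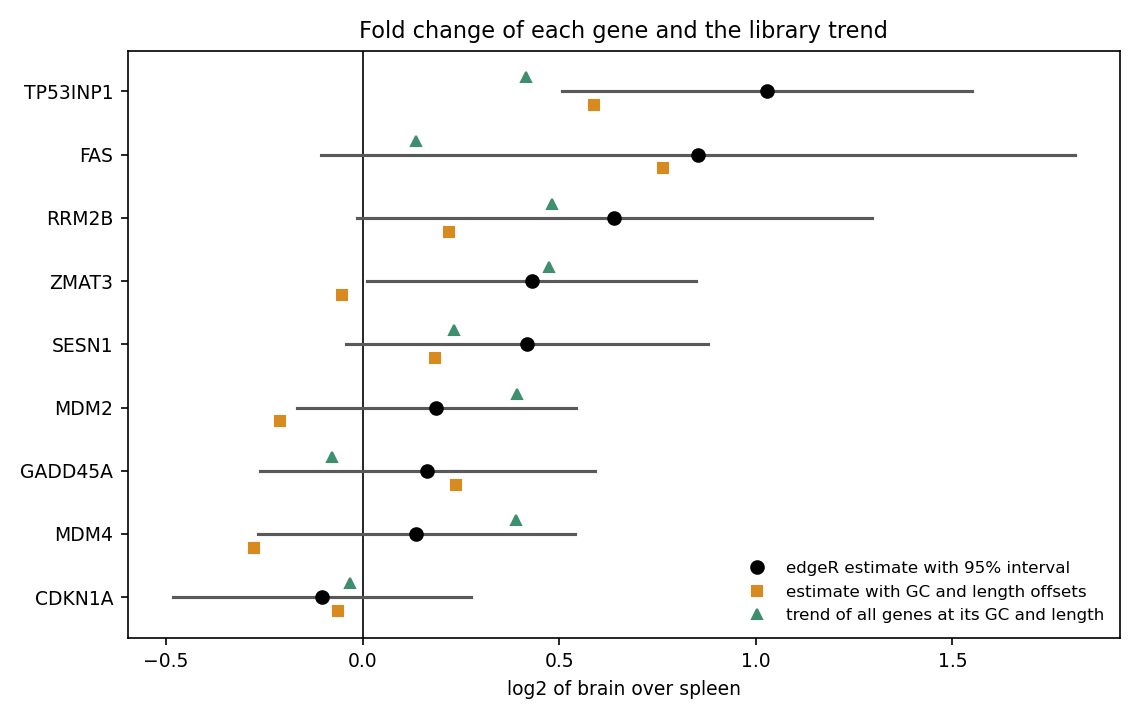
Log2 fold change of brain over spleen for each gene, with its 95% interval as a line (black circle), the value with GC and length offsets (orange square) and the trend of all genes at the same GC content and length (green triangle). TP53INP1 has the highest value, 1.03, and an offset value of 0.59, whereas the offset values of ZMAT3, MDM2 and MDM4 lie below 0.

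The transcript files held 101 transcripts of the 9 genes, of which 32 could be tested. Of these 0 passed (edgeR's quasi-likelihood test, smallest adjusted p 0.148), and over all 59159 transcripts tested 0% passed. At an unadjusted p under 0.05 there were 7 of the 32, against 13.8% of all transcripts, and DESeq2 called 5 of them, where it called 6.32% of all. The shares are estimates from reads that transcripts of a gene largely have in common, and the uncertainty of the estimate is not part of any test here. They are described for the 7 genes whose annotated transcripts held at least 90% of the gene count.

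Transcript usage could be tested for 7 of the 9 genes, all but FAS and ZMAT3, and MDM4 alone passed, at an adjusted p of 0.00651 (edgeR's diffSpliceDGE), where 11.4% of 10447 genes passed. The full-length MDM4-203, which encodes 490 amino acids, took 46.3% and 32.8% of the gene's estimated counts in brain, against 26.3% and 21.6% in spleen. Its share was higher in both brain libraries, although its own usage did not pass with an adjusted p of 1. MDM4-205 took 41.7% and 59.4% in brain, against 48.9% and 34.5% in spleen, so that the groups overlapped. It lacks exon 6 of the 11 exons of MDM4-203, a stretch of 68 bases at chr1:204537430-204537497, and encodes 140 amino acids. Skipping of this exon is known to give the truncated protein MDM4-S.

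Among the tested transcripts of MDM4, 1 passed on its own usage. MDM4-204, which lacks exons 3 to 10, took 0% in both brain libraries, against 3.71% and 34.9% in spleen, and its usage passed with an adjusted p of 0.00353 (edgeR's diffSpliceDGE), where 2.57% of all transcripts tested did. MDM4-214, of 267 amino acids, took 0% in both brain libraries, against 16.7% and 0.03% in spleen. The spleen libraries thus differed from each other in these transcripts. The usage call for MDM4 was lost when either brain library was left out. It passed when either spleen library was left out. The spread then came from the brain pair alone, so this is no support for the usage call of MDM4. With the replicate block its adjusted p was 0.0467.

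Of the other genes, SESN1 and TP53INP1 split their counts between a pair of transcripts. SESN1-202, which starts within the gene at position 109009555 of chromosome 6 and encodes 492 amino acids, took 49.6% and 46.2% in brain, against 33.7% and 54.7% in spleen. SESN1-204, with 551 amino acids, took 49.1% and 51.0% in brain, against 60.6% and 44.3% in spleen. The brain libraries were alike and lay between the spleen libraries for both transcripts. TP53INP1-202, which encodes the shorter protein of 164 amino acids, took 64.6% and 62.4% in brain, against 57.9% and 52.6% in spleen. TP53INP1-201, with 240 amino acids, took the rest. Both brain shares of TP53INP1-202 were higher than both spleen shares, but the usage test gave an adjusted p of 0.705 (edgeR's diffSpliceDGE). In the remaining genes 1 transcript held most counts in every library, from 87.1% to 93.9% for GADD45A-202 to at least 97.6% for ZMAT3-201.

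**Figure D3:**
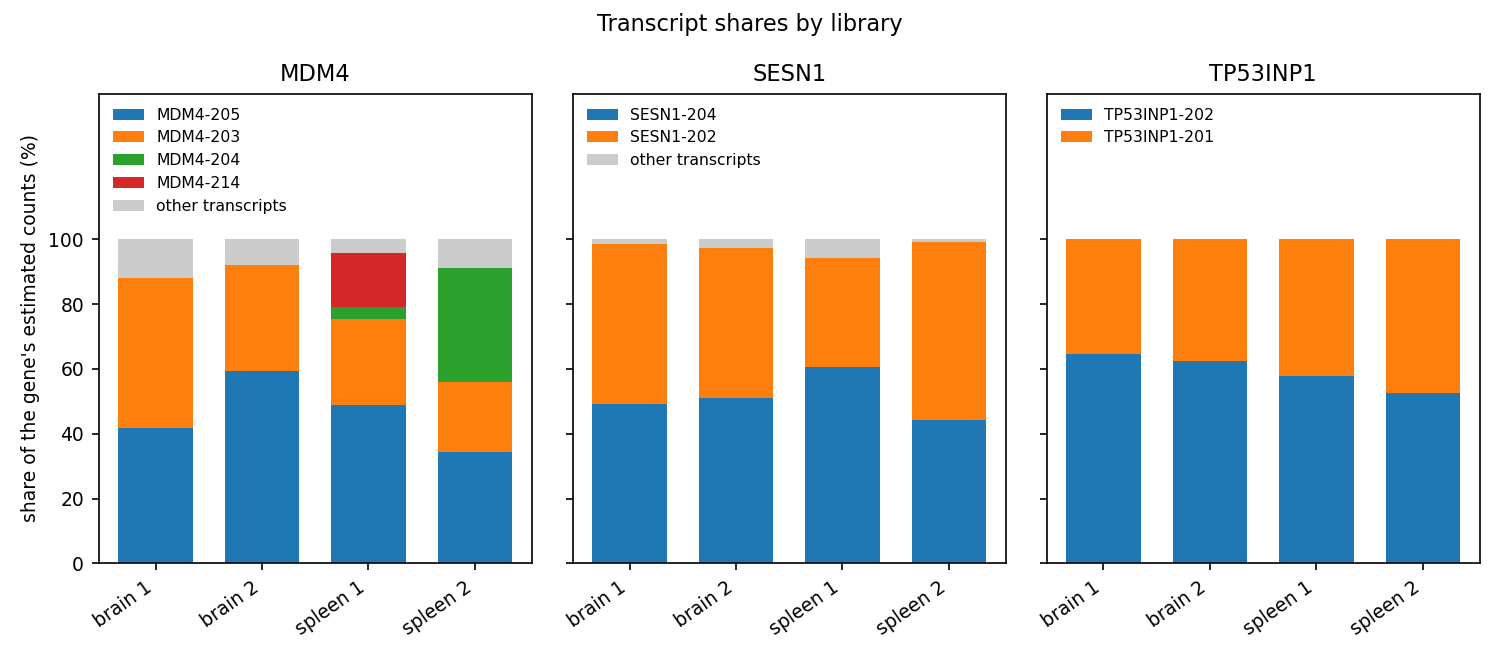
Share of each gene's estimated counts (%) taken by its transcripts in each library, for MDM4, SESN1 and TP53INP1, with transcripts below 10% in every library summed as other transcripts. MDM4-204 is at 0% in both brain libraries and at 3.71% and 34.9% in the spleen libraries.

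Other genes of the pathway, and relatives and partners of the 9 genes, were counted in 9 lists, which hold 119 distinct genes beside the 9. Of these, 109 were tested, and 6 rose and 0 fell in brain (edgeR, 1.63% higher and 0.387% lower over all genes). Their median log2 fold change was -0.02, against 0.04 for all genes, and 50 of the 109 were positive. With the replicate block 12 passed, where 10.9% of all genes did. There were 53 without spleen replicate 1, where 37.9% of all genes passed, 38 without spleen replicate 2, where 17.3% did, and 3 without brain replicate 1, where 2.25% did. On each occasion all 6 genes that rose were higher in brain, by 0.76 to 1.69 on the log2 scale. They were picked by the test on these same libraries, so these values are no separate support. SESN3 and GADD45B, 2 of the 6, came from the list of relatives and partners. Counts and medians below include those of the 9 genes that a list also holds.

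Of 9 tested genes of cell cycle arrest, 1 rose and 0 fell, with a median log2 fold change of 0.16. The one that rose was BTG2, an antiproliferative gene with 69.2 and 53.8 CPM in brain, against 24.8 and 31.9 CPM in spleen. Both brain libraries were clearly higher, and the log2 fold change was 1.12 ± 0.20 (SE) with an adjusted p of 0.0377 (edgeR), or 0.162 without brain replicate 1. With the GC and length offsets the value was 1.08.

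Of 10 tested genes of feedback and ubiquitination, 1 rose and 0 fell, with a median of 0.18. TRIM22, an interferon-inducible TRIM protein, had 80.3 and 69.4 CPM in brain, against 42.3 and 31.3 CPM in spleen. Its groups were well apart, with a log2 fold change of 1.02 ± 0.19 (SE) and an adjusted p of 0.0419 (edgeR), or 0.163 without brain replicate 1.

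Of 30 other tested target genes, 2 rose and 0 fell, with a median of 0.16. SYTL1, a synaptotagmin-like protein of vesicle traffic, had 26.8 and 21.2 CPM in brain, against 8.31 and 9.22 CPM in spleen. CYFIP2, a partner of the fragile X protein that acts on actin through the WAVE complex, had 265 and 239 CPM in brain, against 92.7 and 122 CPM in spleen. Both had brain values far above the spleen values, with log2 fold changes of 1.45 ± 0.19 (SE, adjusted p 0.0152) for SYTL1 and 1.23 ± 0.17 (SE, adjusted p 0.0166) for CYFIP2 (edgeR).

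Relatives and partners of the 9 genes were also listed, and of 7 tested 2 rose and 0 fell, with a median of 0.20. SESN3, the sestrin known as a target of FOXO factors, had 25.8 and 19.7 CPM in brain, against 9.80 and 6.49 CPM in spleen. Its groups were far apart, with a log2 fold change of 1.48 ± 0.25 (SE) and an adjusted p of 0.0352 (edgeR), beside a library trend of 0.50 at its GC content and length and a value of 1.02 with the offsets. GADD45B, a stress gene known as a target of NF-kB, had 29.5 and 27.1 CPM in brain, against 13.3 and 15.5 CPM in spleen. The libraries of each group lay close together, and the log2 fold change was 0.98 ± 0.17 (SE) with an adjusted p of 0.0371 (edgeR). That call was lost without brain replicate 1, at an adjusted p of 0.177, and without brain replicate 2, at 0.0606. Whether SESN3 and GADD45B differed from their relatives SESN1 and GADD45A in the size of the difference was not tested.

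In the lists of apoptosis, of DNA repair and nucleotide supply, and of metabolism and redox defence, 0 genes passed (edgeR). At an unadjusted p under 0.05 there were 2 in each, against 20.6% of all genes. Median log2 fold changes were -0.18 over 13 genes, 0.13 over 9 and 0.09 over 12. BAX, the pore-forming effector of mitochondrial apoptosis, had 50.4 and 53.5 CPM in brain, against 61.3 and 92.8 CPM in spleen, and its log2 fold change was -0.57 ± 0.21 (SE, adjusted p 0.189). The brain values were lower, and spleen replicate 2 was far above the rest. The value was -0.23 without it, and leaving out spleen replicate 1 gave -0.89. APAF1, the scaffold of the apoptosome, was at 0.25 ± 0.14 (SE, adjusted p 0.348).

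PCNA, the sliding clamp of replication and repair, had 363 and 372 CPM in brain, against 529 and 528 CPM in spleen. The replicates were close and the groups well apart, yet the log2 fold change of -0.52 ± 0.13 (SE) had an adjusted p of 0.0870 (edgeR), or 0.0470 with the GC and length offsets and 0.0238 by DESeq2. Without spleen replicate 1 it was 1.23e-05 and without spleen replicate 2 it was 0.000321, at log2 fold changes of -0.57 and -0.51. REV3L, the catalytic subunit of the translesion polymerase zeta, was at 0.78 ± 0.43 (SE, adjusted p 0.385). It was at 1.45 without spleen replicate 1 and at 0.32 without spleen replicate 2. In TPM the order of REV3L was the reverse, with 4.28 and 5.71 in brain against 11.5 and 7.49 in spleen. With gene counts summed from the annotated transcripts its log2 fold change was -0.23, and the cause was not tested. With the replicate block its adjusted p was 0.00153 by edgeR, but 0.126 by DESeq2 and 0.0667 by edgeR with the offsets. GPX1, a glutathione peroxidase, was at -0.50 ± 0.18 (SE, adjusted p 0.179), or at -0.76 without spleen replicate 1 and at -0.23 without spleen replicate 2. PRKAB1, a subunit of the energy sensor AMPK, was at -0.01 ± 0.17 (SE, adjusted p 0.984).

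Of 22 regulators of p53, 0 passed (edgeR), where 2.02% of all genes did, and the median was 0.09. An unadjusted p under 0.05 was reached by 5 of the 22, against 20.6% of all genes. The ribosomal proteins RPL5 and RPL11, which bind MDM2 under ribosomal stress, had log2 fold changes of 0.17 ± 0.14 (SE, adjusted p 0.511) and 0.04 ± 0.13 (SE, adjusted p 0.904).

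The cell cycle genes that p53 represses through p21 and the DREAM complex were the list with the lowest median. All 12 log2 fold changes were negative, between -0.72 and -0.01, with a median of -0.45, while 0 of 12 passed (edgeR). At an unadjusted p under 0.05 there were 10 of 12, against 20.6% of all genes, and for 10 of 12 both brain libraries lay below both spleen libraries, as was so for 26.7% of all genes. These genes are known to be expressed together in dividing cells and are not independent of each other. All 12 were negative in 13 of 16 settings, the GC and length offsets and the RLE size factors included, and 11 of 12 in the other 3. DESeq2 called 2 of the 12, where 6.21% of all genes passed, and the replicate block 3, where 10.9% did. Without spleen replicate 1 there were 10 of 12, where 37.9% of all genes passed, and without spleen replicate 2 also 10, where 17.3% did.

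MYBL2, a transcription factor of dividing cells, had 182 and 199 CPM in brain, against 233 and 276 CPM in spleen, and its log2 fold change was -0.42 ± 0.15 (SE, adjusted p 0.165, edgeR). It was -0.59 without spleen replicate 1, and it was -0.28 without spleen replicate 2. CDK1, the kinase of mitotic entry, had 201 and 224 CPM in brain, against 259 and 208 CPM in spleen. Its groups overlapped, and its log2 fold change was -0.14 ± 0.16 (SE, adjusted p 0.654, edgeR), or -0.02 without spleen replicate 1 and -0.27 without spleen replicate 2 (adjusted p 0.0416). Over this list the median library trend was 0.01, against 0.08 for all genes tested and 0.39 for the 9 genes. CDKN1A, which encodes p21, was at -0.10. Whether p53, p21 or DREAM had a part in the values of this list was not tested.

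**Figure D4:**
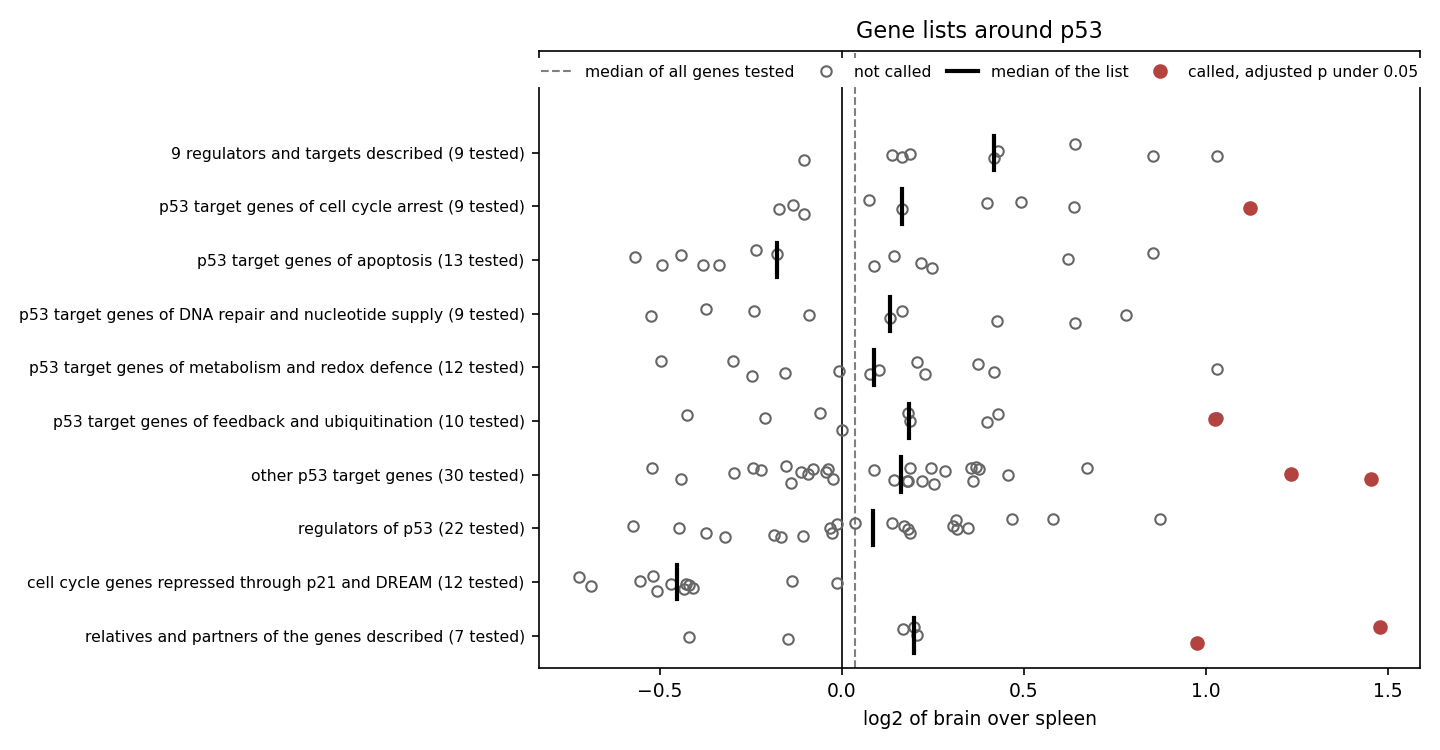
Log2 fold change of brain over spleen for each tested gene of the 9 genes described and of 9 lists around p53, with a line for each list's median and a dashed line for the median of all genes tested (filled circles passed the test). The 12 genes repressed through p21 and DREAM all lie below 0, while the genes that passed lie between 0.98 and 1.48.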

How the data were processed

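Stranded poly(A) libraries were made from total RNA, per the labels' protocols. The tools named are kallisto 0.42.4, cutadapt 1.5, DESeq2 and bcl2fastq 1.8.4, with the builds GRCm38 and GRCh38, per the submitters' processing notes. Neither annotation release nor strand option is given in the sources used here. The authors deposited a gene table of estimated counts rounded to whole numbers, and transcript files with an estimated count and a TPM value for each human and mouse transcript. TPM were rescaled here to the human transcripts. Another deposited table of log2 values was not used, nor were 2 columns that match no sample.

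Identifiers were matched to GENCODE release 44, which held 56322 of the 65217 (86.4%). Brain was compared with spleen by edgeR 4.0.16 (R 4.3.3, TMM factors, filterByExpr, robust quasi-likelihood test) over 17075 genes, with Benjamini-Hochberg adjustment and a threshold of 0.05, and transcripts likewise after rounding. The standard error follows from the test statistic. Transcript usage was tested by diffSpliceDGE. Offsets came from splines of 4 degrees of freedom in GC content and length. DESeq2 1.42.0 and limma 3.58.1 were alternatives. The scripts were tested on simulated data.

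Totals per library were 26266136 to 36913437 counts, so that 3 counts are 0.0813 to 0.114 CPM. That floor covers counting error only. P-values measure the spread between these libraries, which may be technical, and the smallest p that an exact permutation test of 2 against 2 allows is 0.333. The labels name 2 occasions, and libraries of the same number were taken here to come from the same one. The deviations of same-numbered libraries correlated over 17075 genes with a Pearson r of 0.0269 and a Spearman rho of -0.0149. The genes and lists were chosen with earlier results of these data known. All 9 genes are named, of each other list the called members, up to 4 by size (or, with none called, the 2 at the highest level), and transcripts with a mean share of at least 10%. MDM4-204 and MDM4-214 fall outside that rule and were named after their values were seen.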

Additional observations from a re-analysis of the deposited data

How the results depend on the processing

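Over 15 other settings, the number of the 9 genes called was 0 in the main test, 2 without a filter, 1 by DESeq2, 2 with the edgeR replicate block, 1 with GC and length offsets and the block, and 0 to 5 when a replicate was left out. For the lists it was 6 in the main test, 21 without a filter, 2 with a stricter filter, 12 with the block, 12 with the offsets, 22 with offsets and block, and 3 to 53 when a replicate was left out. For transcripts it was 0 in the main test, 5 by DESeq2 and 0 to 3 when a replicate was left out, and for transcript usage 1, and 0 to 2. Signs turned as follows, on the log2 scale, with the cause not tested. With offsets and with offsets plus block, MDM2 was at -0.21 and -0.20, MDM4 at -0.28 and -0.27, ZMAT3 at -0.052 and -0.039, and APAF1 at -0.18 and -0.16. With gene sums of the transcript files, MDM2 was at -0.037 and REV3L at -0.23. PRKAB1 was at 0.0075 with the stricter filter and 0.0024 among protein-coding genes. Without 1 replicate, MDM4 ranged from -0.0704 to 0.32, CDKN1A from -0.32 to 0.10, PRKAB1 from -0.18 to 0.13 and RPL11 from -0.017 to 0.079. TP53INP1 ranged from 0.59 to 1.22 over its settings and passed in 7 of them. SYTL1 and CYFIP2 passed in all settings, while BTG2, TRIM22, SESN3 and GADD45B each lost the call in at least 1. The counts of FAS limit what can be said of it.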
